A study of Mus musculus with 12 samples.

Results

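The Hox genes are the homeobox transcription factor genes of clusters A, B, C and D, and the members described here are the probe sets whose only gene symbol is a Hox letter and number. They number 48 probe sets of 33 genes, among 44238 probe sets and 17996 named genes on the arrays. Cluster A on chromosome 6 held 16 probe sets of 9 genes, cluster B on chromosome 11 held 11 of 9 genes, cluster C on chromosome 15 held 11 of 7 genes and cluster D on chromosome 2 held 10 of 8 genes. A single probe set stood for 22 genes, 8 genes had 2, 2 had 3 and Hoxa3 had 4.

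Somatic support cells, the gonadal lineage that becomes Sertoli cells in the testis and granulosa cells in the ovary, had been isolated by flow cytometry. The 4 groups were XY at embryonic day 12.5 (E12.5), XX at E12.5, XY at E11.5 and XX at E11.5, with 3 pools of cells and 3 Affymetrix mouse arrays in each. All pools came from 1 strain, FVB.Cg mice with the transgenes Tg(Tyr)3412ARpw and Tg(Sry-EGFP)92EI, so that every group carried both, the second joining Sry to the green fluorescent protein EGFP. The labels give neither the gate of the sort nor the litters behind each pool. The p-values therefore rest on how far the 3 pools of a group lay apart, taken over all 4 groups together, a spread that may be technical.

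Hox proteins give cells their position along the body axis. Genes of a cluster lie in the order in which they act, from low paralog numbers expressed toward the head to high numbers expressed toward the tail, and genes of the same number in different clusters are paralogs that often share a role. Hox proteins bind DNA together with TALE homeodomain cofactors of the Pbx, Meis and Pknox families, Trithorax and Polycomb complexes keep the clusters on or off, and the gonad forms beside the mesonephros in trunk mesoderm that already carries a Hox code.

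The sex labels were checked on the arrays. Xist, the X-inactivation RNA, lay at 6.562 to 7.866 (log2 signal, as are all levels below) on the XY arrays and at 12.8 to 12.95 on the XX arrays, and Eif2s3y, a Y-linked gene, at 10.85 to 11.36 on the XY arrays and at 3.678 to 4.004 on the XX arrays. The supporting cell genes Gata4, Wt1 and Nr5a1 read 8.596 or more on all 12 arrays. XX E11.5 pool 2 stood apart from the others: the mean deviation from the 12-array mean was 1.62 over the interstitial mesenchyme markers (12 genes), 1.88 over the endothelial ones (12), 0.967 over those of macrophages and leukocytes (10) and -0.709 over those of supporting cells (11). The differences of named Hox genes that use this pool are given with and without it. RNA was measured in bulk, so fewer cells of a type and less RNA per cell cannot be told apart.

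**Figure D1:**
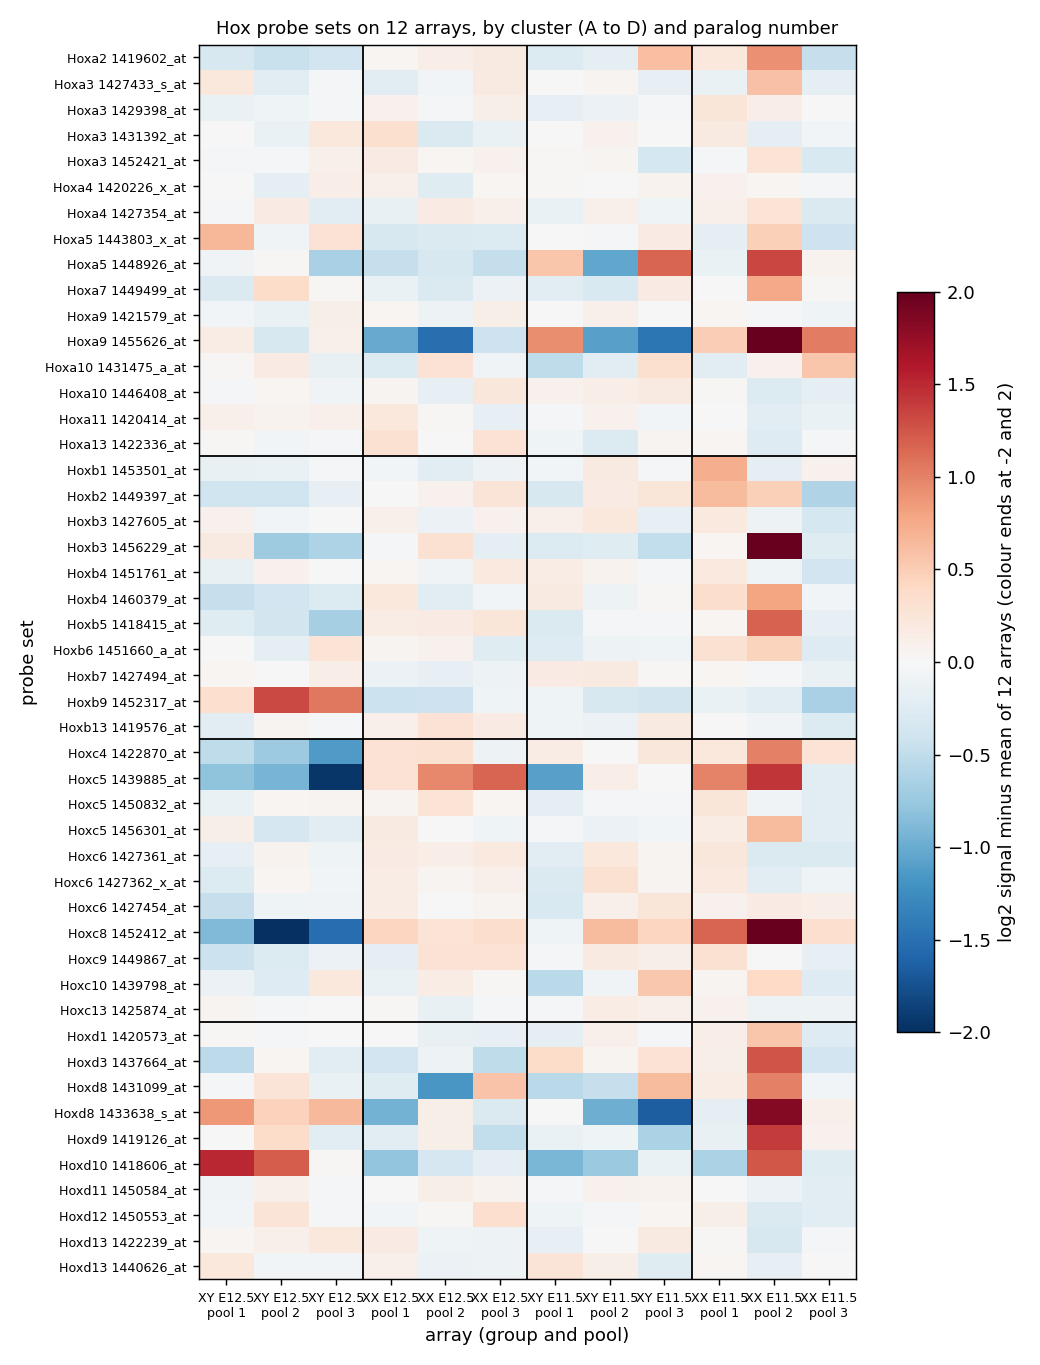
Each row is a Hox probe set, ordered by cluster and paralog number, and each column an array. The colour is the log2 signal minus that probe set's mean over 12 arrays. XX E11.5 pool 2 has the highest value at 20 of 48 probe sets, and Hoxc4, Hoxc5 (1439885_at) and Hoxc8 are low on the 3 XY E12.5 arrays.

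At E12.5, 3 of 48 Hox probe sets differed between XY and XX cells: Hoxb9 was higher in XY, and Hoxc4 and one probe set of Hoxc5 were lower in XY. The test was limma's moderated test with a Benjamini-Hochberg adjusted p under 0.05 over all probe sets, and it called 7.72% of all probe sets (3.92% higher and 3.81% lower in XY), so that 6.25% of the Hox probe sets is near the background. The median difference between XY and XX cells was -0.0443 on the log2 scale over the Hox probe sets and -0.00404 over all probe sets. All 3 values of XY lay above or below all 3 of XX at 18 Hox probe sets, 6 higher and 12 lower, where 28.6% of all probe sets (14.2% higher and 14.4% lower) did so. An unadjusted p under 0.05 was found at 7 Hox probe sets, where 20% of all probe sets had one.

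Hoxc4, the gene of cluster C with the lowest paralog number and known for roles in neck and thoracic vertebrae and in lymphocytes, was the only anterior (paralogs 1 to 4) gene of the 33 that passed the test. It read 8.03, 7.82 and 7.42 in XY E12.5 pools 1 to 3, against 8.83, 8.85 and 8.45 in XX E12.5 pools 1 to 3. The 2 groups did not overlap. The difference was -0.95 ± 0.23 (SE), 1.94-fold lower in XY with a 95% interval of 1.36 to 2.76 and an adjusted p of 0.0313. It lost the call without XY E12.5 pool 2 or 3 or XX E12.5 pool 1 or 2, with the highest adjusted p at 0.115.

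The promoter table from RefSeq (GRCm38.p6) has an entry for Hoxc4, and the 250 bases before its start are shown because Hoxc4 is the called Hox gene with an entry. They are chr15:103034145-103034394 on the plus strand, 5′ to 3′, with the only match to the motifs below in capitals:
Hoxc4: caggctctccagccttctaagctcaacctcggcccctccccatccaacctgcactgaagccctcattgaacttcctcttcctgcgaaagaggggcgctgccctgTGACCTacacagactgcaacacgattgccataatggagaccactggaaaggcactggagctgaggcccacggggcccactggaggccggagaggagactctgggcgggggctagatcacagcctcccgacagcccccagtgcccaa
The motifs were searched on both strands in windows of 250 bases before and 50 after the start, which were found for 19 of the 33 genes (21 windows). The capitals begin at position -146 from the start and are the reverse complement of AGGTCA, a core motif of nuclear receptors, which was in 6 of 21 Hox windows (28.6%) and in 16.3% of all 32851 windows. The Hox and Pbx joint motif TGATNNAT was in 3 of 21 Hox windows (14.3%, those of Hoxa2, Hoxb1 and Hoxd11) against 8.85% of all windows. The SOX motif AACAAT and the GATA motif AGATAA were in 0 of 21 Hox windows, against 10.7% and 11.2% of all windows. No other motif overlaps the Hoxc4 match, and a match is a description of the letters alone.

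Hoxc5, the neighbour of Hoxc4 in the cluster and a gene of neck and upper trunk segments, differed at its brightest probe set (1439885_at). That probe set read 7.42, 7.29 and 6.28 in XY E12.5 pools 1 to 3, against 8.51, 9.19 and 9.39 in XX E12.5 pools 1 to 3. The groups did not overlap, and the lowest of the XY values was pool 3. The difference was -2.04 ± 0.49 (SE), 4.10-fold lower in XY with a 95% interval of 1.92 to 8.76 and an adjusted p of 0.0317. The other Hoxc5 probe sets disagreed in size: 1450832_at differed by -0.13 ± 0.13 and 1456301_at by -0.17 ± 0.20, and neither passed the test. The call of 1439885_at was lost without any 1 of XY E12.5 pools 1, 2 and 3 and XX E12.5 pools 2 and 3, with adjusted p up to 0.117.

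Hoxc8, a gene of thoracic vertebrae and brachial motor neurons, had the widest range over 12 arrays of any Hox probe set, 5.71. It read 8.06, 5.53 and 7.42 in XY E12.5 pools 1 to 3, against 9.38, 9.22 and 9.29 in XX E12.5 pools 1 to 3. The XX pools lay within a narrow band and the XY pools were spread widely below it. The difference was -2.29 ± 0.62 (SE) with an adjusted p of 0.0508, just outside the threshold. It passed the test without XY E12.5 pool 1, XX E11.5 pool 2 or XX E11.5 pool 3, with the lowest adjusted p at 0.0315. Hoxc8 did not pass without XY E12.5 pool 2, whose value was the lowest, and the difference was then smaller in size.

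The rest of cluster C had smaller differences. The 3 probe sets of Hoxc6, a thoracic patterning gene, differed by -0.19 to -0.27 and did not overlap between XY and XX, with adjusted p from 0.39 to 0.607. Hoxc9, known for thoracic identity in motor neurons, differed by -0.40 ± 0.17 with an adjusted p of 0.206. In all, 10 of 11 cluster C probe sets had a negative difference, with a median of -0.216, and the same counts came from quantile normalization (median -0.179) and median centring (-0.177). Leaving out each array in turn gave 9 to 10 negative differences. The 11 probe sets stood for 7 genes, with 3 for Hoxc5 and 3 for Hoxc6, and were read on the same arrays. These counts are therefore not of independent members. Within the cluster all 7 probe sets of the central genes (paralogs 5 to 8) were negative, while Hoxc13 at the far end differed by 0.06.

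Hoxb9, a gene of rib and trunk patterning that acts with its paralogs in the mammary gland, was the only Hox probe set that passed the test as higher in XY at E12.5. It read 6.86, 7.83 and 7.57 in XY E12.5 pools 1 to 3, against 6.09, 6.11 and 6.43 in XX E12.5 pools 1 to 3. The lowest XY pool was above the highest XX pool. The means were 7.42 ± 0.50 in XY and 6.21 ± 0.19 in XX (SD, n = 3 each), and the difference was 1.21 ± 0.24 (SE), a 2.31-fold increase with a 95% interval of 1.60 to 3.34 and an adjusted p of 0.0124. The call was lost only without XY E12.5 pool 3, at an adjusted p of 0.0523. Hoxb9 was dim, with a mean of 6.52 over 12 arrays and XX E12.5 values below the lowest array median of 6.494. It was therefore not in the fit to brighter probe sets alone, which left 19 alternatives. The other members of cluster B showed both signs: Hoxb5, known from lung and gut neuron development, differed by -0.61 ± 0.29 (adjusted p = 0.284), and 7 of 11 probe sets in the cluster were negative (6 after quantile normalization or median centring), with a median of -0.0777.

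Cluster D had no call. Of its 10 probe sets 8 had a positive difference, with a median of 0.112 (0.13 after quantile normalization and 0.151 after median centring), and 7 to 9 were positive when each array was left out in turn. The probe sets stood for 8 genes, with 2 each for Hoxd8 and Hoxd13, and were read on the same arrays. These counts too are not of independent members. Some differences were small at dim probe sets: Hoxd1 and Hoxd3 differed by 0.0987 and 0.0973 at mean levels of 4.12 and 5.52. Hoxd10, known from hindlimb and lumbar motor neuron patterning, read 8.13, 7.84 and 6.65 in XY E12.5 pools 1 to 3, against 5.84, 6.30 and 6.43 in XX E12.5 pools 1 to 3. The groups did not overlap, but XY pool 3 lay close to the XX pools, and the difference of 1.35 ± 0.50 (SE) had an adjusted p of 0.152. RefSeq has Hoxd10 overlapping Hoxd11, and transcripts of overlapping genes may share a probe set, a point that also touches Hoxa3, Hoxa4, Hoxa5, Hoxb3, Hoxb4 and Hoxd3. Hoxd8, an axial patterning gene, gave 8.62, 8.21 and 8.40 in XY E12.5 pools 1 to 3, against 6.79, 7.86 and 7.45 in XX E12.5 pools 1 to 3, at probe set 1433638_s_at. That difference was 1.04 ± 0.55 (adjusted p = 0.336), and the brighter Hoxd8 probe set, 1431099_at, differed by 0.30 ± 0.46.

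Cluster A was split, with 9 of 16 probe sets positive (10 after either rescaling) and a median of 0.0128. The smallest p in the cluster was that of Hoxa5, a gene of neck vertebrae and lung, at its brightest probe set (1443803_x_at). It read 9.87, 9.14 and 9.49 in XY E12.5 pools 1 to 3, against 8.88, 8.92 and 8.93 in XX E12.5 pools 1 to 3. Those groups did not overlap, the difference was 0.59 ± 0.23 (SE) with an adjusted p of 0.177, and the other Hoxa5 probe set (1448926_at) differed by 0.19 ± 0.53. Hoxa9, a gene of blood stem cells and of lower trunk patterning, gave 8.86, 8.39 and 8.81 in XY E12.5 pools 1 to 3, against 7.70, 7.21 and 8.30 in XX E12.5 pools 1 to 3, at probe set 1455626_at, a difference of 0.95 ± 0.72 (adjusted p = 0.55). The other Hoxa9 probe set (1421579_at) differed by -0.04 ± 0.10.

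By paralog number, the differences at E12.5 crossed the clusters. The 16 probe sets of the anterior genes (paralogs 1 to 4) had a median of -0.0773 with 6 positive, the 15 of the central genes (paralogs 5 to 8) a median of -0.133 with 7 positive, and the 17 of the posterior genes (paralogs 9 to 13) a median of 0.0325 with 9 positive. Paralogs 1, 2 and 7 had only 2 probe sets each and shared a sign, which carries little weight at that number. Paralog 11, also with 2, was split at -0.0671 and 0.06. Both probe sets of paralog 2 (Hoxa2 and Hoxb2) were negative, with a median of -0.463. The sexes overlapped at neither, where 28.6% of all probe sets did not overlap. Both of paralog 1 were positive but small, at 0.0249 and 0.0987, and the sexes overlapped at both. Both of paralog 7 were positive, at 0.175 and 0.211, and the sexes did not overlap at 1 of them. Among the central genes, all 3 probe sets of cluster A (2 genes) and both of cluster D (1 gene, Hoxd8) were positive. All 7 of cluster C (3 genes) were negative. Cluster B was split, with 2 positive and 1 negative, the latter Hoxb5 at -0.61. The paralog 9 group held Hoxb9, the called gene, beside Hoxc9 with a difference of the other sign.

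**Figure D2:**
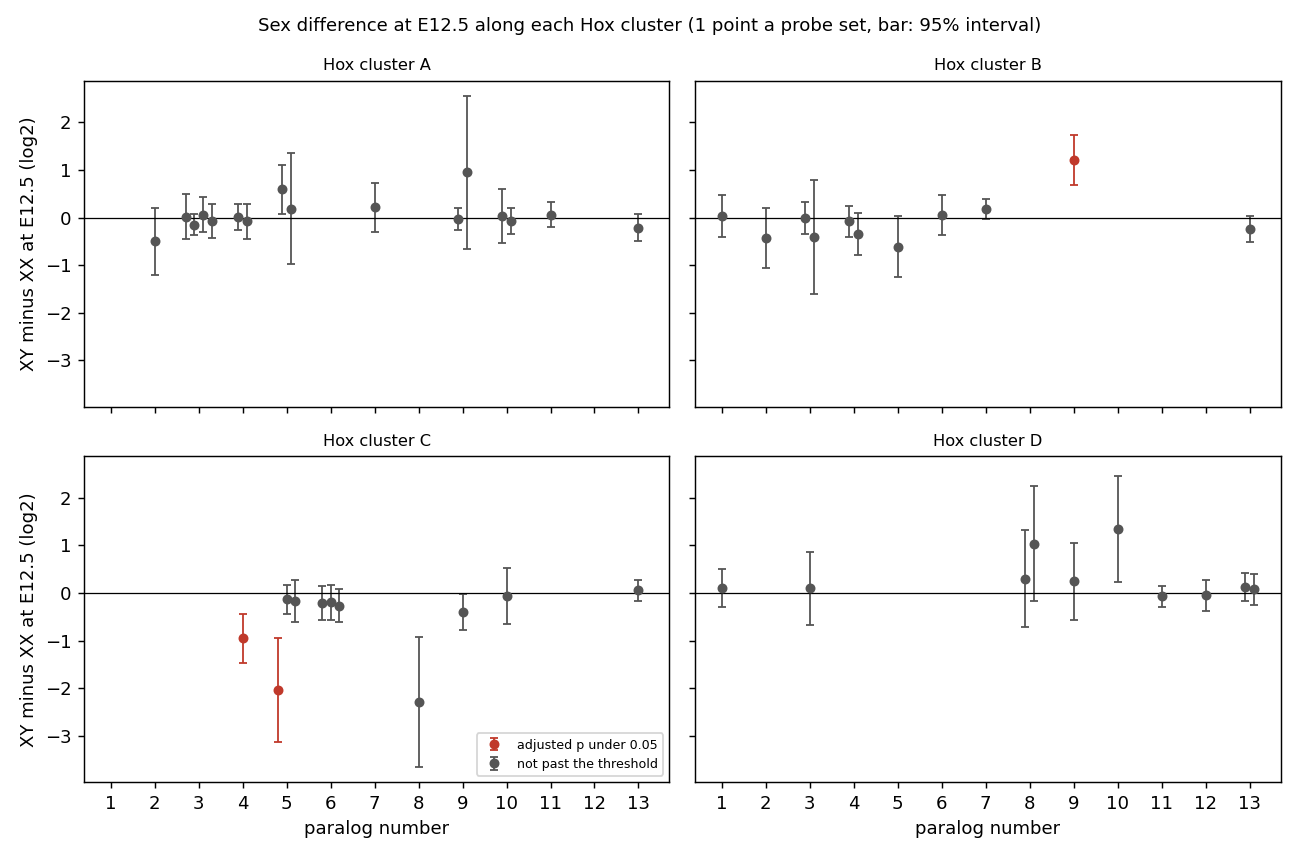
Each point is a Hox probe set, placed by paralog number within its cluster, and the vertical axis is the XY minus XX difference at E12.5 in log2 signal with its 95% interval. Hoxc4, Hoxc5 (1439885_at) and Hoxb9 passed the test, 10 of 11 points of cluster C are below 0 and 8 of 10 points of cluster D are above 0.

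Marker lists of other cells differed between the same arrays at E12.5. The summed linear signal of 10 measured coelomic and mesonephric epithelium markers was 1063 to 1157 in XY E12.5 pools, against 4091 to 5272 in XX E12.5 pools, with Emx2 lower and Cited1 higher in XY. Emx2 alone carried that gap, with 307 to 433.5 in XY pools, against 3167 to 3798 in XX pools, and the other 9 genes summed to 631.5 to 849.4 in XY pools, against 687.4 to 1475 in XX pools. Of 12 interstitial mesenchyme markers Pdgfra and Ptch1 were higher and Acta2 lower in XY, and the list's summed signal was 10610 to 14090 in XY pools, against 6152 to 8421 in XX pools. Pdgfra and Ptch1 together gave 9089 to 11910 in XY pools, against 2065 to 2794 in XX pools, while the other 10 genes ran the other way, at 1528 to 2246 in XY pools, against 4086 to 6052 in XX pools, and the list's median difference was -0.035. Over the endothelial list it was 1385 to 2069 in XY pools, against 1264 to 1682 in XX pools, and 0 of the 12 passed the test in either direction. Over the macrophage list it was 3370 to 4796 in XY pools, against 2458 to 2922 in XX pools, with Fcgr3 higher in XY. Germ cell markers summed to 475.1 to 885.8 in XY pools, against 443.7 to 825.2 in XX pools, and erythroid markers to 421.5 to 582.1 in XY pools, against 335.9 to 356.6 in XX pools. The 4 erythroid genes did not move together. Klf1 read 7.917 to 8.507 (log2) in XY pools, against 6.55 to 6.898 in XX pools. Alas2 read 5.826 to 6.011 in XY pools, against 5.309 to 5.507 in XX pools. Gata1 ran the other way, at 6.413 to 6.99 in XY pools, against 7.256 to 7.434 in XX pools, and Hba-a1 overlapped. Of 11 supporting cell markers 3 were higher in XY (Sox9, Dhh and Amh, genes of Sertoli cells) and 5 lower (Foxl2, Fst, Rspo1, Wnt4 and Lhx9). Their part in the Hox differences was not tested.

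Across the day in XY cells, 2 of 48 Hox probe sets changed (4.17%), and both were among those that separated the sexes at E12.5. The comparison called 6.16% of all probe sets (3.18% higher and 2.98% lower at E12.5), 5 Hox probe sets had an unadjusted p under 0.05 where 20.2% of all probe sets had one, and the comparison shares the XY E12.5 pools with the sex comparison, so that the 2 results are not independent. Hoxb9 read 6.86, 7.83 and 7.57 in XY E12.5 pools 1 to 3, against 6.43, 6.20 and 6.16 in XY E11.5 pools 1 to 3. Every later pool was above every earlier pool, and the change was 1.16 ± 0.24 (SE), a 2.23-fold increase with a 95% interval of 1.54 to 3.22 and an adjusted p of 0.0197. It lost the call in the fit to the 6 compared arrays alone and without XY E12.5 pool 2, XY E12.5 pool 3 or XY E11.5 pool 3, with adjusted p up to 0.0781.

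Hoxc4 read 8.03, 7.82 and 7.42 in XY E12.5 pools 1 to 3, against 8.69, 8.56 and 8.78 in XY E11.5 pools 1 to 3. It fell by 0.92 ± 0.23 (SE) on the log2 scale with an adjusted p of 0.0446, close to the threshold, and 12 of 20 alternative settings lost the call, with adjusted p up to 0.154. Hoxc8 read 8.06, 5.53 and 7.42 in XY E12.5 pools, against 8.85, 9.58 and 9.37 in XY E11.5 pools, a difference of -2.26 ± 0.62 with an adjusted p of 0.0604. Hoxc5 (1439885_at) differed by -0.92 ± 0.49 (adjusted p = 0.344), with 7.42, 7.29 and 6.28 in XY E12.5 pools, against 7.14, 8.36 and 8.24 in XY E11.5 pools.

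In cluster D, Hoxd10 differed by 1.51 ± 0.50 across the day in XY (adjusted p = 0.116), with 5.72, 5.88 and 6.50 in XY E11.5 pools 1 to 3, all below the XY E12.5 values above. Hoxd8 (1433638_s_at) differed by 1.53 ± 0.55 (adjusted p = 0.142), where the XY E11.5 pools read 7.76, 6.77 and 6.10, and its brighter probe set by 0.15 ± 0.46. The other posterior D probe sets lay between -0.04 for Hoxd11 and 0.32 for Hoxd9. In cluster A the smallest p was that of Hoxa2, the patterning gene of the hyoid arch, at -0.43 ± 0.32 (adjusted p = 0.52). By cluster, 10 of 11 C probe sets and 9 of 11 B probe sets had a negative change and 7 of 10 D probe sets a positive one; after median centring these counts were 9, 6 and 9. The groups did not overlap at 10 Hox probe sets, 3 higher and 7 lower at E12.5, where 26.8% of all probe sets (13.8% higher and 13% lower) did not. Over the same arrays Emx2 had a linear signal of 307 to 433.5 in XY E12.5 pools, against 3259 to 3404 in XY E11.5 pools, and the other 9 coelomic and mesonephric markers summed to 631.5 to 849.4 in XY E12.5 pools, against 567.9 to 632.5 in XY E11.5 pools. The summed signal of the macrophage markers was 3370 to 4796 in XY E12.5 pools, against 868.2 to 2387 in XY E11.5 pools. Their part in the Hox changes was not tested.

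**Figure D3:**
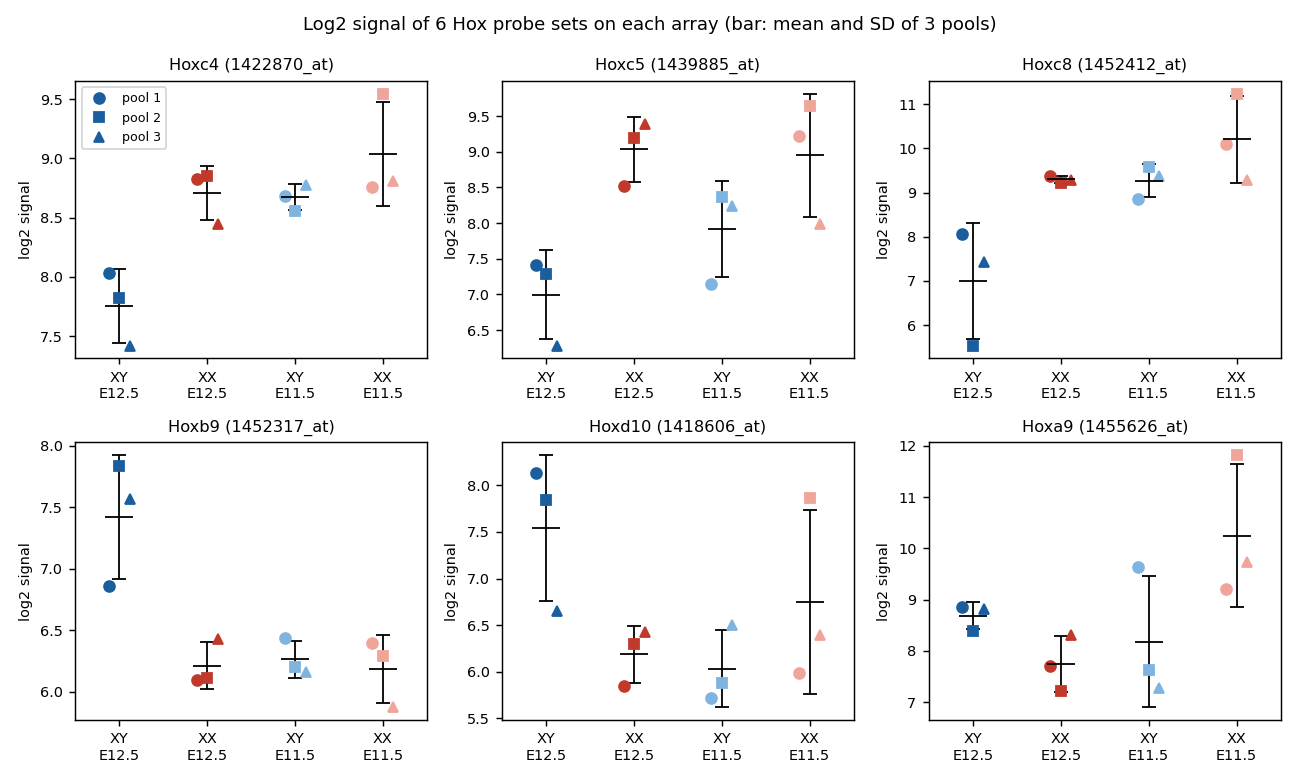
Each panel gives the log2 signal of a Hox probe set on the 12 arrays, with the symbol marking the pool and the bar the mean and SD of 3 pools. The XY E12.5 pools are the lowest group for Hoxc4 and Hoxc8 and the highest for Hoxb9, and XX E11.5 pool 2 is the highest array for Hoxc4, Hoxc5, Hoxc8 and Hoxa9.

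At E11.5 no Hox probe set passed the test between XY and XX cells. In this comparison limma called 0.0678% of all probe sets (0.0543% higher and 0.0136% lower in XY), and 4 Hox probe sets had an unadjusted p under 0.05, where 6.81% of all probe sets had one. The median difference was -0.0904 over the Hox probe sets, against 0.0505 over all probe sets, and 30 of 48 were negative. Without XX E11.5 pool 2 the median was 0.0102 and 22 were negative. The groups did not overlap at 3 Hox probe sets, 1 higher and 2 lower in XY, where 10.1% of all probe sets (6.62% higher and 3.5% lower) did not.

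The members with the smallest p at E11.5 all depended on that pool in size. Hoxa9 (1455626_at) read 9.64, 7.62 and 7.27 in XY E11.5 pools 1 to 3, against 9.20, 11.82 and 9.73 in XX E11.5 pools 1 to 3. XY pool 1 lay within the XX values, and the difference was -2.07 ± 0.72 (adjusted p = 0.647) with the pool and -1.29 without it. Hoxd8 (1433638_s_at) read 7.76, 6.77 and 6.10 in XY pools, against 7.56, 9.57 and 7.85 in XX pools, and differed by -1.45 ± 0.55 (adjusted p = 0.678) with the pool and -0.83 without it. Hoxc5 (1439885_at) differed by -1.04 ± 0.49 (adjusted p = 0.749) and by -0.69 without the pool. Hoxb3, a hindbrain gene, differed by -1.02 ± 0.54 (adjusted p = 0.759) at its dimmer probe set (1456229_at) and by -0.24 without the pool, while its brighter probe set (1427605_at) differed by 0.14 ± 0.15 and by 0.13 without the pool.

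Across the day in XX cells no Hox probe set passed the test either, where 3.11% of all probe sets did (1.69% higher and 1.43% lower at E12.5), and 2 Hox probe sets had an unadjusted p under 0.05, where 22.2% of all probe sets had one. The groups did not overlap at 4 Hox probe sets, 1 higher and 3 lower at E12.5, where 26.6% of all probe sets (16.6% higher and 9.93% lower) did not. Hoxa9 (1455626_at) had the smallest p: it read 7.70, 7.21 and 8.30 in XX E12.5 pools 1 to 3, against 9.20, 11.82 and 9.73 in XX E11.5 pools 1 to 3. All later pools were below all earlier ones, the difference was -2.51 ± 0.72 (SE) with an adjusted p of 0.0848, and it was -1.73 (adjusted p = 0.192) without XX E11.5 pool 2. Hoxb13, a tail-end gene known from the prostate, differed by 0.30 ± 0.13 (adjusted p = 0.195), and by 0.32 without the pool, with 4.72, 4.90 and 4.79 in XX E12.5 pools, against 4.62, 4.55 and 4.35 in XX E11.5 pools.

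The smallest p of clusters C and D in XX belonged to members that also moved with the pool. Hoxd3, a gene of the upper neck, differed by -0.66 ± 0.35 (adjusted p = 0.289) with the pool and by -0.20 without it, and Hoxc6 (1427361_at) by 0.28 ± 0.16 (adjusted p = 0.341) and 0.19. The genes that separated the sexes at E12.5 did not pass the test in XX. Hoxb9 differed by 0.03 ± 0.24 across the day with a 95% interval of -0.50 to 0.56, and by 0.08 without XX E11.5 pool 2. Hoxc5 (1439885_at) differed by 0.08 ± 0.49 with an interval of -1.02 to 1.17, and by 0.43 without the pool. Hoxc4 differed by -0.33 ± 0.23 with an interval of -0.84 to 0.18, and by -0.08 without the pool.

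Whether the sex difference itself differed between the days was tested with the interaction of sex and day. No Hox probe set passed it, where 1.75% of all probe sets did (0.796% higher and 0.954% lower). The 4 members with an unadjusted p under 0.05 (14.6% of all probe sets had one) were Hoxa9 (1455626_at) at 3.02 ± 1.02, Hoxd8 (1433638_s_at) at 2.49 ± 0.77, Hoxd10 at 2.07 ± 0.71 and Hoxb9 at 1.13 ± 0.34. Their adjusted p lay between 0.137 for Hoxb9 and 0.198 for Hoxd10. Without XX E11.5 pool 2 the values were 2.24 for Hoxa9, 1.87 for Hoxd8, 1.51 for Hoxd10 and 1.08 for Hoxb9. In cluster C the smallest p was that of Hoxc9, at -0.44 ± 0.24 (adjusted p = 0.437) and -0.41 without the pool, while Hoxc4 gave -0.59 ± 0.32 and -0.84 without it. The change of Hoxb9 and Hoxc4 in XY and its absence among the calls in XX were therefore not shown to differ between the sexes.

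The spread of the Hox probe sets over the 12 arrays was near that of the whole table. The range from the lowest to the highest array had a median of 0.773 over the 48 probe sets, against 1.02 over all probe sets, and it was under 1 at 28 of 48 (58.3%), against 49.2% of all. The 8 probe sets of paralogs 11 to 13, the genes of the tail end that pattern the lower body and the genital tubercle, had ranges of 0.283 to 0.637. These are Hoxa11, Hoxa13, Hoxb13, Hoxc13, Hoxd11, Hoxd12 and both probe sets of Hoxd13. Ranges over 2 were found at 10 Hox probe sets (20.8%, against 19.2% of all), with Hoxc8 and Hoxa9 (1455626_at, range 4.62) the widest. No detection call per array was used here, so a level that stayed flat may be a steady signal or background.

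XX E11.5 pool 2 carried the highest of the 12 values at 20 of 48 Hox probe sets (41.7%), while it carried the highest value at 8.62% of all probe sets. It carried the lowest value at 20.2% of all probe sets, more than any other array, and at 5 Hox probe sets. The mean deviation from the 12-array mean was 0.48 over all Hox probe sets, with 0.438 in cluster A, 0.399 in B, 0.475 in C and 0.64 in D. Hoxa9 (1455626_at) read 11.82 in this pool, Hoxc8 11.24, Hoxc4 9.55 and Hoxd9 9.53. Hoxb3 (1456229_at) read 8.04 there, against 5.09 to 6.11 on the other 11 arrays, and Hoxb5, at 7.35, was above the other 11 arrays at 5.50 to 6.40. The mesenchyme, endothelial and macrophage markers were high on the same array, as given above, and their part in its Hox levels was not tested.

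**Figure D4:**
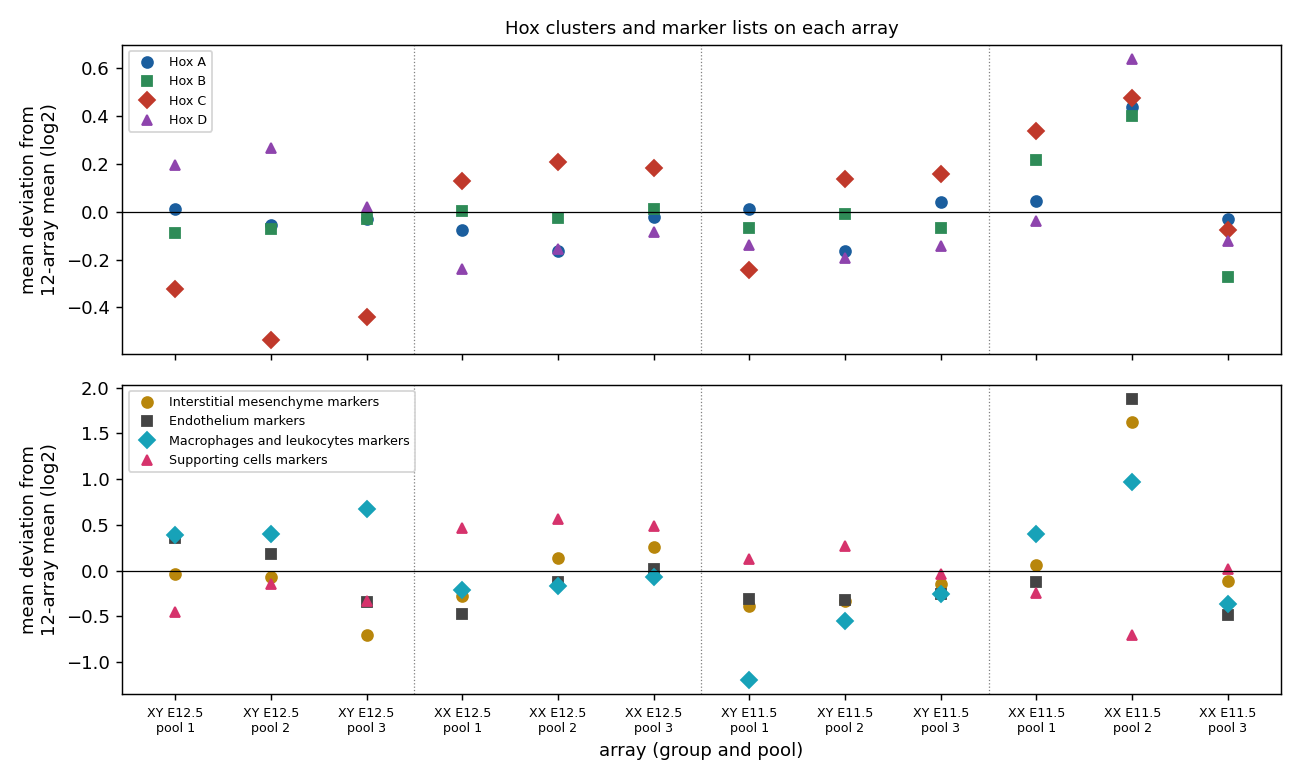
The upper panel gives, for each array, the mean deviation of the Hox probe sets of a cluster from their 12-array mean in log2 signal, and the lower panel the same for 4 marker lists. XX E11.5 pool 2 has the highest point of every Hox cluster (0.399 to 0.64) and of the mesenchyme, endothelial and macrophage lists, and cluster C is lowest on the 3 XY E12.5 arrays.

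Among the partners of Hox proteins, Pbx3 and Pknox2 were lower in XY than in XX cells at E12.5. Of 9 listed TALE cofactor genes 8 were measured, 0 were higher and 2 lower in XY at E12.5, and the list's median difference was -0.679, against -0.00404 over all probe sets. The comparison called 3.92% of all probe sets as higher and 3.81% as lower. Here and for the lists below, the list takes each gene's brightest probe set, while the share counts all probe sets, dim ones included. The 2 are therefore not alike, and whether a list exceeds a share of brightest probe sets was not tested. Pbx3, a Pbx family member that binds DNA with Hox proteins, read 9.21, 9.66 and 9.11 in XY E12.5 pools 1 to 3, against 11.55, 11.67 and 12.03 in XX E12.5 pools 1 to 3. The groups were far apart, with a difference of -2.42 ± 0.19 (SE) and an adjusted p of 6.07e-05, and both Pbx3 probe sets passed the test. Pknox2, which pairs with Pbx proteins, read 8.14, 8.16 and 7.66 in XY pools, against 9.77, 9.68 and 9.40 in XX pools, a difference of -1.63 ± 0.32 (adjusted p = 0.0131) that lost the call without XY E12.5 pool 3. Its dimmer probe set did not pass the test.

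Across the day in XY, 3 of the 8 cofactors fell, where 2.98% of all probe sets did, and the list's median change was -0.745, against 0.0162 over all probe sets. Pbx3 fell by 1.77 ± 0.19 (SE) on the log2 scale (adjusted p = 0.000656), where the XY E11.5 pools had read 11.19, 10.79 and 11.30. Pknox2 fell by 2.35 ± 0.32 (adjusted p = 0.0028). Meis1, whose protein joins Hox and Pbx complexes, fell by 1.06 ± 0.20 (adjusted p = 0.013), with 10.37, 10.93 and 10.33 in XY E12.5 pools 1 to 3, against 11.69, 11.72 and 11.41 in XY E11.5 pools 1 to 3, and 2 of its 3 probe sets passed the test. Without XY E12.5 pool 3 the Meis1 call was lost. No cofactor passed the test at E11.5 or across the day in XX, and Pbx3 passed the interaction at -2.18 ± 0.27 (adjusted p = 0.0037) and at -2.12 without XX E11.5 pool 2 (adjusted p = 0.0109). That was its brighter probe set. The dimmer one (1421193_a_at) gave -1.39 ± 0.42 with an adjusted p of 0.142, so that only 1 of 2 passed.

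**Figure D5:**
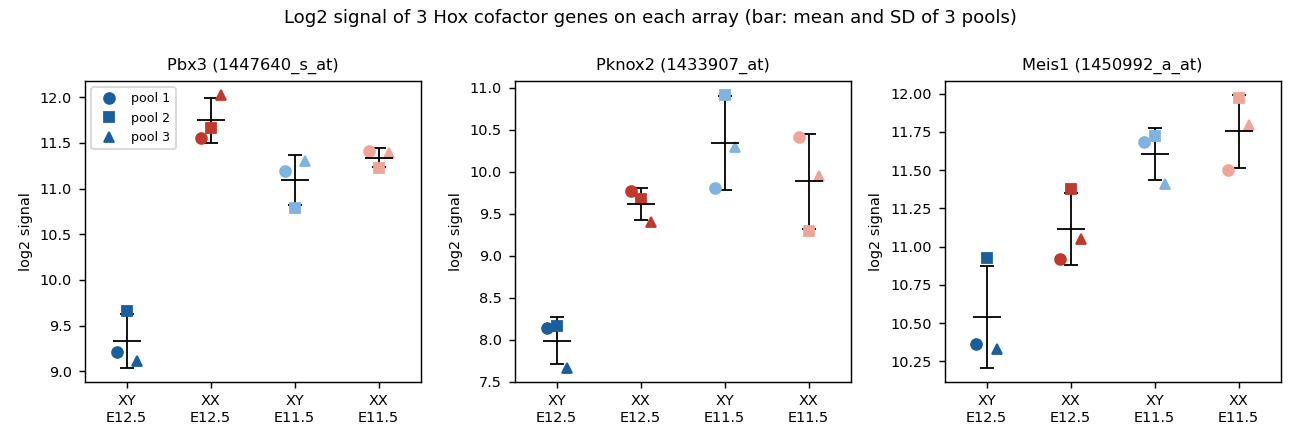
Each panel gives the log2 signal of a cofactor gene's brightest probe set on the 12 arrays, with the symbol marking the pool and the bar the mean and SD of 3 pools. The XY E12.5 pools are the lowest group in all 3 panels, and for Pbx3 (9.11 to 9.66) and Pknox2 (7.66 to 8.16) they do not overlap any other group.

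Of 20 listed Trithorax and Polycomb regulators of the Hox clusters 19 were measured, and 0 were higher and 2 lower in XY than in XX cells at E12.5. Over all probe sets 3.92% were called higher and 3.81% lower. Phc1, a subunit of Polycomb repressive complex PRC1, read 10.52, 10.42 and 10.18 in XY E12.5 pools 1 to 3, against 11.79, 11.35 and 11.49 in XX E12.5 pools 1 to 3. That difference was -1.17 ± 0.19 (adjusted p = 0.00452), it passed in all 20 alternatives, and Phc1 also passed the interaction (-1.33 ± 0.27, adjusted p = 0.0402), where 12 of 19 alternatives lost the call. Phc2, its paralog, differed by -1.11 ± 0.29 (adjusted p = 0.0437), a call lost in 9 of 20 alternatives. The list's median was -0.277 at E12.5, against -0.00404 over all probe sets.

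Across the day in XX, 1 of the 19 regulators rose and 3 fell, where 1.69% of all probe sets rose and 1.43% fell. Cbx2, the PRC1 subunit that is required for testis formation in the mouse, rose by 0.88 ± 0.17 (adjusted p = 0.0268). Kmt2a, a Trithorax type methyltransferase that keeps Hox genes active, fell by 1.33 ± 0.27 (adjusted p = 0.0305), Suz12, a subunit of the H3K27 methylating complex, fell by 1.28 ± 0.27 (adjusted p = 0.0374) and Rnf2, the ubiquitin ligase of PRC1, fell by 1.00 ± 0.22 (adjusted p = 0.0421). Each of these 4 calls was lost without any 1 of XX E12.5 pools 2 and 3 and XX E11.5 pools 2 and 3. In all, 4 of 20 alternatives lost the call for Cbx2, 6 for Kmt2a, 6 for Suz12 and 10 for Rnf2. Only 1 probe set of each gene passed the test, of 2 for Cbx2 and Kmt2a, 6 for Suz12 and 5 for Rnf2. The Rnf2 probe sets disagreed in direction: 1448041_at differed by 0.44 ± 0.13, 1448043_x_at by 0.52 ± 0.14, 1448042_s_at by 0.03 ± 0.15 and 1451519_at by -0.43 ± 0.28. For Cbx2, Kmt2a and Suz12 the other probe sets had the sign of the called one. Across the day in XY, 0 of the 19 regulators rose and 2 fell, where 3.18% of all probe sets rose and 2.98% fell. Jarid2, a partner of the H3K27 methylating complex, fell by 0.88 ± 0.20 (adjusted p = 0.0274) and Phc1 by 0.84 ± 0.19 (adjusted p = 0.0312). Each of these 2 calls was lost in 6 of 20 alternatives, with adjusted p up to 0.0955 for Jarid2 and 0.116 for Phc1. At E11.5 no listed regulator passed the test between the sexes.

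Other listed genes around the clusters gave few calls. The test called 7.72% of all probe sets for sex at E12.5 and 3.11% for the day in XX. None of the 6 ParaHox and caudal genes, the relatives of Hox genes outside the clusters, passed the test in any of the 5 comparisons. Of 9 measured axial signals, Gmnn, whose protein geminin limits DNA replication and can bind Hox proteins, was higher in XY at E12.5 by 1.79 ± 0.38 (adjusted p = 0.0187), with 10.37, 10.42 and 10.98 in XY pools, against 8.14, 8.93 and 9.34 in XX pools. Of 17 measured genes near the clusters only Skap2, an adaptor gene on the anterior side of cluster A, passed the test. It was higher in XY at E12.5 by 1.31 ± 0.29 (adjusted p = 0.0217) and fell across the day in XX by 1.63 ± 0.29 (adjusted p = 0.021), at 1 of its 3 probe sets. The XX call was lost without any 1 of XX E12.5 pools 2 and 3 and XX E11.5 pools 2 and 3. It was also lost in the fit to the compared arrays alone. The 3 measured RNAs of the clusters, Hoxa11os, Hoxb5os and Hoxd3os1, gave no call in any comparison.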

How the data were processed

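The authors deposited 1 log-scale value per probe set and array, taken as log2 because the highest was 14.45. How probes were summarised and arrays normalized is not stated in the labels or the file. Per the labels' protocols, PicoPure RNA went through 2 rounds of TargetAmp amplification. Of 45037 rows, 798 were blank on all arrays and 1 on some, which left 44238. Array medians were 6.494 to 6.592, and 3 arrays a group limit the precision. Gene symbols (34328 probe sets with 1, 850 with several, 9060 with none) came from the platform annotation, updated through Entrez identifiers (34126 matched) with RefSeq.

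limma 3.58.1 (R 4.3.3) fitted 4 group means over 12 arrays (8 residual and 2.11 prior degrees of freedom), two-sided, adjusted by Benjamini-Hochberg over all probe sets. It was tested on simulated data. Lists use each gene's brightest probe set on average. Pool numbers did not pair samples: of 18 same-numbered pairs 4 correlated above 0.1 (-0.398 to 0.235). Members, lists and the rule for named genes (called members, the smallest p per cluster and comparison, up to 4 called genes per list) were chosen with earlier results of these data known. Hoxc8, Hoxd9, Hoxb5, Hoxc13 and values beyond the rule were chosen after they were seen. Alternatives were quantile normalization, median centring, brighter probe sets alone, a trended robust prior, array weights, the pool number as a block, fits to the compared arrays, a single probe set per gene and each array left out. Figures used matplotlib 3.10.9.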

Additional observations from a re-analysis of the deposited data

How the results depend on the processing

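With 3 arrays a group, 1 array decided several calls. The count of Hox probe sets called stayed at 0 in 20 of 20 alternatives for sex at E11.5 and for the day in XX. For sex at E12.5, the count of 3 became 5 in the fit to the compared arrays alone (Hoxa2 and Hoxb5 added), and ranged from 0 to 5 when each array was left out: 0 without XY E12.5 pool 3, 1 (Hoxb9) without XY E12.5 pool 2 or XX E12.5 pool 2, and 5 without XX E11.5 pool 2 (Hoxb5 and Hoxc8 added). For the day in XY, the count of 2 became 1 (Hoxb9) after median centring and with a trended and robust prior, 0 in the fit to the compared arrays alone, and ranged from 0 to 4 when each array was left out: 0 without XY E12.5 pool 2, XY E12.5 pool 3 or XY E11.5 pool 3, and 4 without XX E11.5 pool 2 (Hoxc8 and Hoxd10 added). For the interaction it ranged from 0 to 1, with Hoxb9 called without XY E12.5 pool 1. The 4 groups share an estimate of the spread, so leaving out an array outside a comparison can change its p-values but not its difference. Beyond that, the cause was not tested. With the pool number as a replicate block the counts were 3 for sex at E12.5 and 2 for the day in XY, with the same genes, and of 18 same-numbered pairs 6 correlated best with their own number; Phc2 at E12.5, Rnf2 in XX and Phc1 in the interaction lost their calls under the block. No called Hox difference changed direction in any alternative run. Alternatives for the other named genes were added after seeing the data: the Pbx3 calls held in all, while the calls of Gmnn and Skap2 at E12.5 were lost in 3 and 4 of 20.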
